A study of Mus musculus with 4 samples.

Results

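The genes described here are 35 genes of the cell cycle and of DNA replication, read from count tables that list 53647 mouse genes. They were taken as a named list of S-phase and mitosis genes, and all 35 passed the filter on low counts that left 15173 genes for testing. They were ordered by role: 11 genes of origin licensing and the replicative helicase (Cdc6, Cdt1, Mcm2, Mcm3, Mcm4, Mcm5, Mcm6, Mcm7, Cdc45, Gins2 and Pcna), 4 of nucleotide supply (Rrm1, Rrm2, Tyms and Tk1), 5 regulators of G1 and of the G1/S transition (Ccnd1, Ccne1, Ccne2, Cdk2 and E2f1), 9 of mitotic entry and chromosome condensation (Ccna2, Ccnb1, Ccnb2, Cdk1, Aurka, Plk1, Mki67, Top2a and Kif11) and 6 of the spindle checkpoint and mitotic exit (Bub1, Bub1b, Aurkb, Birc5, Cenpa and Cdc20). Pcna, the sliding clamp of the replication fork and no part of the helicase, was placed in the first list. The first pair of lists makes up the 15 replication genes and the last pair the 15 mitosis genes.

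RNA was sequenced from mouse primary myotubes that had received recombinant ectodysplasin A2 (EDA-A2) and from control myotubes, to learn which transcripts change when the EDA-A2 receptor is activated. There were 2 libraries per condition, named Control 1, Control 2, EDA-A2 1 and EDA-A2 2. All cells were wild type. The myoblasts came from limb muscles of pups aged 2 to 3 days, were grown in 20% fetal bovine serum with bFGF (a fibroblast growth factor) at 2.5 ng/mL and were differentiated in 5% horse serum. EDA-A2 was given at 250 ng/mL for 24 h after 48 h of differentiation, and harvest was at 72 h. The labels name the other condition only as Control, without a vehicle. Such cultures usually hold fused myotubes together with mononucleated cells that have not fused, and in RNA from the whole culture fewer cells of a type and less RNA per cell cannot be told apart. Nothing in the labels says that the libraries of a condition came from separate cultures or animals, so p-values measure only the spread between these libraries, which may be technical. Counts on genes summed to between 29444155 and 29746863 per library. A normalized count is the count scaled to the mean library size after correction by edgeR's TMM factors, and log2 fold changes are EDA-A2 over Control.

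A dividing cell licenses its replication origins in G1 by loading the MCM helicase with the help of Cdc6 and Cdt1, and fires them in S phase when Cdc45 and the GINS complex join the helicase. Cyclin D and cyclin E kinases release E2F transcription factors from the retinoblastoma protein, which turns on the replication genes, while genes of G2 and mitosis are switched on later through CHR promoter elements and CCAAT boxes. Myoblasts leave the cell cycle for good when they fuse, and the nuclei of a myotube normally do not replicate their DNA.

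The promoters of the 35 genes were searched for these elements. Windows from 250 bases before to 50 bases after the start of the Ensembl canonical transcript were read from GRCm39 for 21613 protein-coding genes and searched on both strands. An E2F site was searched as TTTCCCGC, TTTCGCGC, TTTGCCGC or TTTGGCGC, a CHR element as TTTGAA or TTTAAA, and the CCAAT box as CCAAT. E2F spellings can overlap each other on opposite strands. The E2F site was found in 2.78% of all promoters and in 6 of the 15 replication genes (Mcm3, Mcm4, Mcm5, Mcm6, Cdt1 and Cdc6), in 2 of the 5 G1 regulators (E2f1 and Cdk2) and in 1 of the 15 mitosis genes (Cdk1). The CHR element was found in 27.0% of all promoters, in 5 of 15 replication genes, 1 of 5 G1 regulators and 10 of 15 mitosis genes. The CCAAT box was found in 39.9% of all promoters, in 9 of 15 replication genes, 2 of 5 G1 regulators and 12 of 15 mitosis genes. Over the 13056 protein-coding genes that were tested, the shares of the E2F site, CHR element and CCAAT box were 3.81%, 22.2% and 39.7%. A match describes the letters only and does not show that a factor binds there.

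The 150 bases before the canonical start are printed for 5 genes, 5′ to 3′ on the strand of the gene, with any match to the 3 motifs in capitals. Mcm6 (chr1:128287453-128287602, minus strand) and Mcm4 (chr16:15455265-15455414, minus strand) stand for the replication genes, Cdk1 (chr10:69188769-69188918, minus strand) and Top2a (chr11:98915042-98915191, minus strand) for the mitosis genes, and Ccne2 (chr4:11190411-11190560, plus strand) is shown because it was the one gene of the 35 whose change passed the test. Other annotated transcripts of Mcm6, Cdk1, Top2a and Ccne2 start further upstream. The windows of Cdk1 and Ccne2 thus lie wholly within the annotated gene, and those of Mcm6 and Top2a in part.
Mcm6: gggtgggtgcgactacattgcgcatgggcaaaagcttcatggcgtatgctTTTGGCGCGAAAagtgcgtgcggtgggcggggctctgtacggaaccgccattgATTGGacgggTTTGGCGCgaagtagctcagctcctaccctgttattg
Mcm4: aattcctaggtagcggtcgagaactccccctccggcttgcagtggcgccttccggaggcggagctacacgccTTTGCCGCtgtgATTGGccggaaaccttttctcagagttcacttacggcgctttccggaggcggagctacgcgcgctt
Cdk1: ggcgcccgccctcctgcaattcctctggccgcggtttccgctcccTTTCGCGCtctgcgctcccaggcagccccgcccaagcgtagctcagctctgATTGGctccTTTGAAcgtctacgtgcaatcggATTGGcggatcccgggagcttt
Top2a: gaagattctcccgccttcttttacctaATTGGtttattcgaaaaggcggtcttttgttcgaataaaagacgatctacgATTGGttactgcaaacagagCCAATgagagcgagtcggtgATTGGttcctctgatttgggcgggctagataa
Ccne2: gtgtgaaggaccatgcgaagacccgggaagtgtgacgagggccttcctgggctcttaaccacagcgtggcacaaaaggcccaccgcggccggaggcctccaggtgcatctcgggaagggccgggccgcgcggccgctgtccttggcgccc
Counted from the start, with -1 as the base before it, Mcm6 had a pair of overlapping E2F matches at -100 and -96, on opposite strands. It had another E2F match at -37 and a CCAAT box on the opposite strand at -47. Mcm4 had an E2F match at -78 and a CCAAT box on the opposite strand at -66. Cdk1 had an E2F match at -105, and its CHR element TTTGAA at -45 lay between CCAAT boxes on the opposite strand at -54 and -22. Top2a had 4 CCAAT boxes and no other match in the stretch printed. The Ccne2 stretch held none of the 3 motifs in the spellings searched. Near its end it held CTTGGCGC, which differs from the E2F spelling TTTGGCGC only in its first letter. The lack of a match does not show that no factor binds there.

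After EDA-A2, 1 of the 35 genes was higher, Ccne2, and 0 were lower by the quasi-likelihood test of edgeR, with p-values adjusted over all genes tested by the Benjamini-Hochberg method (threshold 0.05). Over all 15173 genes the same test called 2.45% higher and 2.13% lower, so 1 of 35 was near the share over all genes. At an unadjusted p under 0.05, 4 were higher (Cdc45, Tk1, Ccnd1 and Ccne2) and 1 was lower (Cdk2), against 7.61% and 8.03% of all genes tested. DESeq2's Wald test called 0 of the 35, with 2 higher and 1 lower before adjustment. The fitted log2 fold change was positive for 17 genes and negative for 18, with a median of -0.01, against -0.002 over all genes tested. Both EDA-A2 libraries were above both Control libraries in 7 of the 35 genes and below both in 6, against 22.8% and 22.2% of all genes tested, and neither count exceeded that share. The depth behind these values was high, since counts ranged from 195 for Gins2 to 10525 for Top2a in a library, and log2 fold changes had a median standard error (SE) of 0.09. The 95% intervals of single genes, not adjusted for their number, lay between -0.48 and 0.59, so larger changes lay outside the interval of every one of the 35 genes. The smallest change called among all genes was 0.24 on the log2 scale.

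**Figure D1:**
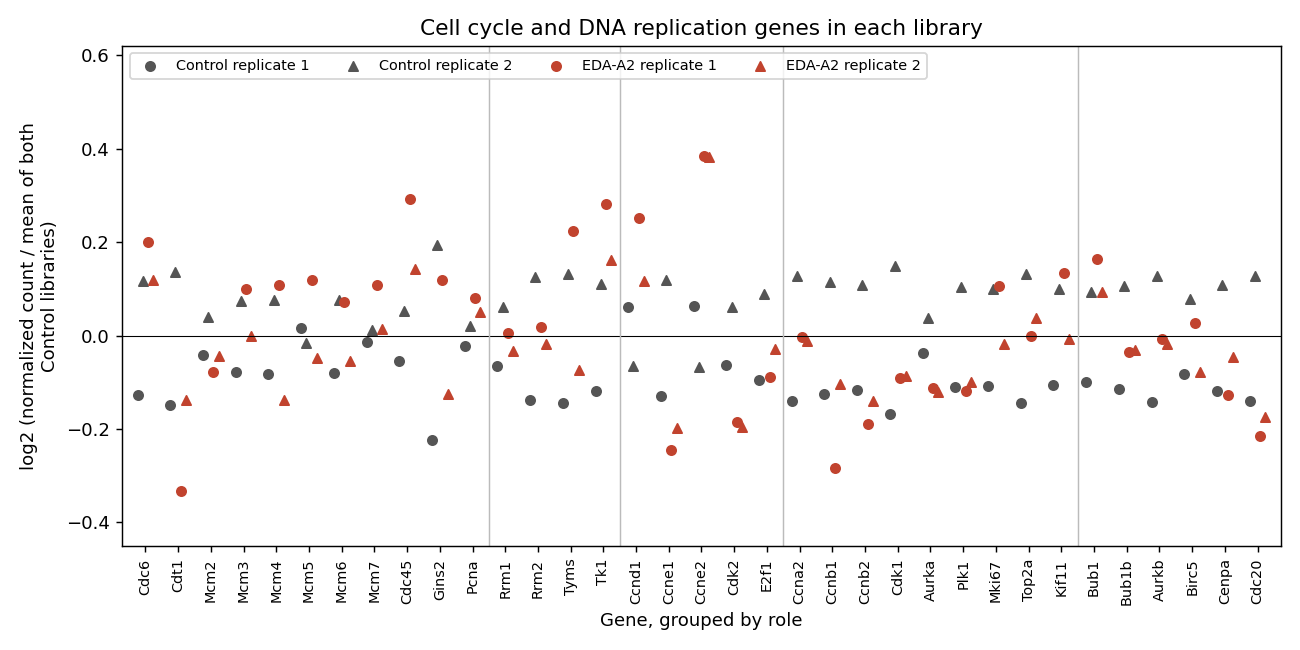
Each point is the log2 ratio of the normalized count of a gene in 1 library to its mean over both Control libraries (vertical axis), for the 35 genes in order of role (horizontal axis, grey lines between roles; grey Control, red EDA-A2; circles replicate 1, triangles replicate 2). Only for Ccne2 do both EDA-A2 libraries lie far above both Control libraries, and Control 2 lies above Control 1 for 32 of the 35 genes.

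Levels per length, in CPM per kb of the canonical transcript (CPM being the usual count scaled to the TMM-corrected library size, here as means over the libraries of a condition), spanned a wide range. Top2a, the topoisomerase that untangles and condenses chromosomes, was the highest at 62.4 in Control and 63.2 after EDA-A2. Pcna, the sliding clamp of the replication fork, followed at 59.2 and 61.9, which was within the range of Top2a over the Control libraries (56.5 and 68.3). Birc5 (survivin, a subunit of the chromosomal passenger complex) stood at 42.5 and 41.7, Cdk2 at 38.6 and 33.8, Rrm1 at 34.6 and 34.3 and Ccnd1 at 31.4 and 35.7. The lowest were Gins2 at 2.03 and 2.04, Cdc6 at 2.64 and 2.95 and Ccne2 at 3.48 and 4.54. The gene that passed the test was thus among the 3 with the lowest level of the set.

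Cyclin E2 (Ccne2, ENSMUSG00000028212, chr4:11190303-11204947 of GRCm39, plus strand) activates Cdk2 at the G1/S transition together with cyclin E1. Its counts were 544 and 508 in Control 1 and 2 and 714 and 711 in EDA-A2 1 and 2. In normalized counts these were 560 and 512 against 700 and 699, a mean of 536 ± 34.1 (SD, n = 2) against 699 ± 0.78 (n = 2). Both EDA-A2 libraries lay above both Control libraries. The log2 fold change was 0.38 (SE 0.09, 95% interval 0.18 to 0.59, adjusted p = 0.0311), a 1.30-fold rise. With another scaling or with at least 10 counts in every library the call held, and over all alternatives the log2 fold change was between 0.32 and 0.45 with an adjusted p between 0.0109 and 0.288. The call was lost without the filter on low counts (adjusted p = 0.21), by DESeq2's Wald test (0.0798) and without EDA-A2 1 (0.198) or EDA-A2 2 (0.205). Without Control 1 or Control 2 the log2 fold change was 0.45 and 0.32, in fits that called 0 of all genes and so give no test. Ccne2 overlaps Ints8 on the opposite strand, which had 1233, 1202, 1351 and 1369 counts in the same order. The strand option of the counting is not given in the sources used here. Reads in an overlap may thus be left out as ambiguous or be counted for either gene. In all, 14 of the 35 genes overlap a gene on the opposite strand. Among them are Cdc45, Tk1, Ccnd1, Ccne2 and Cdk2, the genes with an unadjusted p under 0.05 by edgeR.

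Of the other 4 G1 regulators 0 were called by edgeR or DESeq2. By edgeR 1 was higher and 1 lower at an unadjusted p under 0.05, against 7.61% and 8.03% of all genes tested. Cyclin E1 (Ccne1), the paralogue of Ccne2, had normalized counts of 356 and 424 in Control and 329 and 340 after EDA-A2. Both EDA-A2 libraries were below both Control libraries, but the log2 fold change of -0.22 (SE 0.12, adjusted p = 0.423) did not pass the test. Its sign was opposite to that of Ccne2, and the difference between these genes was not tested. Cdk2, the kinase bound by both cyclins, had 2548 and 2779 normalized counts in Control and 2343 and 2327 after EDA-A2. These groups did not overlap either, at a log2 fold change of -0.19 (SE 0.07, adjusted p = 0.18). Cyclin D1 (Ccnd1), which with Cdk4 and Cdk6 carries growth factor signals to the retinoblastoma protein, had 3678 and 3370 normalized counts against 4197 and 3822. Here both EDA-A2 libraries were the higher ones, and the log2 fold change was 0.19 (SE 0.07, adjusted p = 0.216). E2f1, the E2F activator of S-phase genes, ranged from 1139.5 to 1293.8 in Control and from 1144.9 to 1192.1 after EDA-A2, with a log2 fold change of -0.06.

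Among the 11 licensing and helicase genes, 0 were called by edgeR or by DESeq2, and 8 had a positive and 3 a negative log2 fold change. By edgeR 1 was higher at an unadjusted p under 0.05, against 7.61% of all genes tested, and by DESeq2 0. The one was Cdc45, the helicase cofactor loaded when origins fire, with 883 and 951 normalized counts in Control and 1122 and 1012 after EDA-A2. Its groups did not overlap, and its log2 fold change of 0.22 was the highest of the list (SE 0.09, adjusted p = 0.218). Cdc45 overlaps Ufd1 on the opposite strand, which had 1355 and 1354 counts in Control and 1570 and 1572 after EDA-A2. Whether reads of Ufd1 enter the count of Cdc45 was not tested. Cdt1, which loads the MCM complex, had the lowest value of all 35 genes. It had 527.5 and 642.3 normalized counts in Control and 464.6 and 531.7 after EDA-A2, so that EDA-A2 2 lay above Control 1. The log2 fold change of Cdt1 was -0.23 (SE 0.12, adjusted p = 0.363). Pcna, the highest of the list per length, had 2620 and 2698 normalized counts against 2811 and 2755, apart but by little, for a log2 fold change of 0.07 (SE 0.07, adjusted p = 0.735). The 6 subunits of the MCM ring lay close to 0, from -0.06 for Mcm2 through -0.01 for Mcm4, 0.01 for Mcm6, 0.04 for Mcm5 and 0.05 for Mcm3 to 0.06 for Mcm7. Cdc6, the other loader, was at 0.16 (adjusted p = 0.598), and Gins2, a subunit of GINS, at 0.002 with the widest interval of the set (-0.34 to 0.34). When reads were scaled by total counts, which moved the median of all genes to 0.05, Mcm4 turned positive (0.04).

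Of the 4 enzymes of nucleotide supply, 0 were called by edgeR or DESeq2. By edgeR 1 was higher at an unadjusted p under 0.05, against 7.61% of all genes tested, and by DESeq2 0. Tk1 (thymidine kinase 1, of the thymidine salvage route) had 686 and 805 normalized counts in Control and 907 and 833 after EDA-A2. Both EDA-A2 libraries were the higher ones, and the log2 fold change was 0.22 (SE 0.10, adjusted p = 0.275). Tk1 overlaps Syngr2 and Afmid on the opposite strand, and these had 1634 and 1831, and 148 and 132, counts in Control, against 2358 and 2624, and 214 and 196, after EDA-A2. Whether their reads enter the count of Tk1 was not tested. Rrm1 and Rrm2, the large and small subunits of ribonucleotide reductase, did not separate the conditions. Rrm1 had 4647 and 5072 normalized counts against 4875 and 4750, and a log2 fold change of -0.01 (SE 0.07, adjusted p = 0.958), which was 0.04 when scaled by total counts. Rrm2 had 1606 and 1930 against 1792 and 1745, so that Control held both the lowest and the highest library. Thymidylate synthase (Tyms) was at 0.08, with 398 and 482 against 514 and 418.

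**Figure D2:**
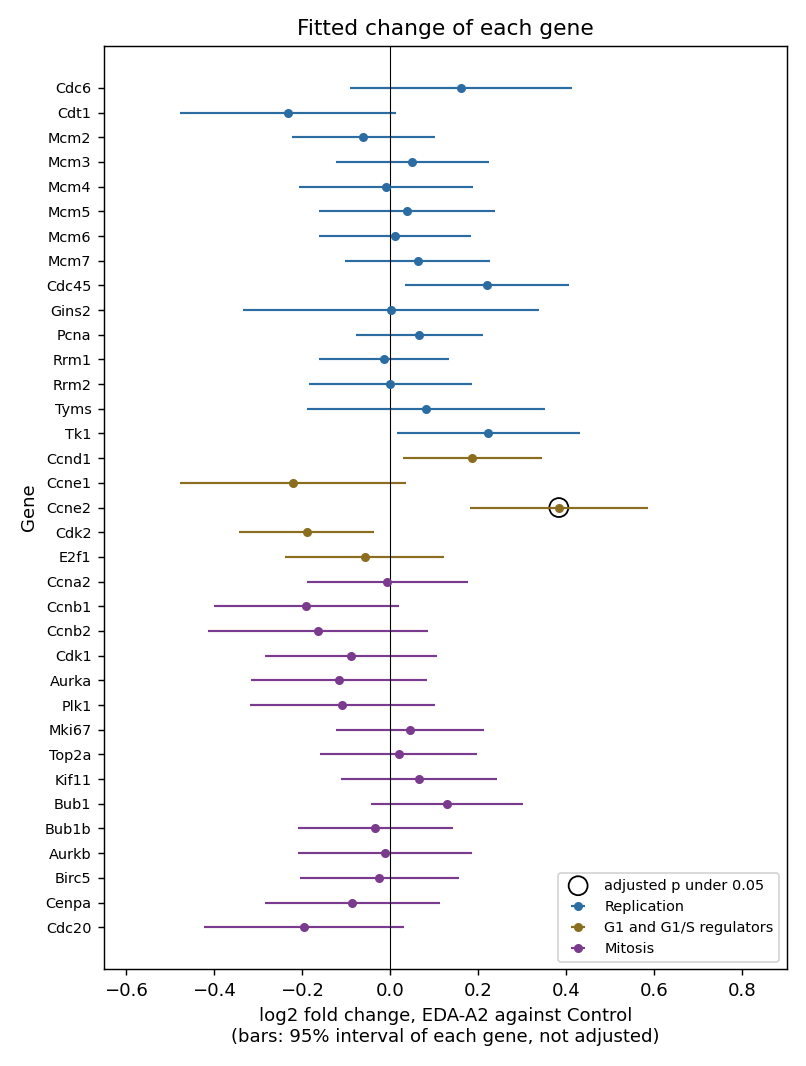
Fitted log2 fold change of EDA-A2 against Control (horizontal axis) for each of the 35 genes (vertical axis), with bars for the 95% interval of each gene, in blue for replication, brown for G1 regulators and purple for mitosis. The interval spans 0 for every gene but Cdc45, Tk1, Ccnd1, Ccne2 and Cdk2, and the ring marks Ccne2, at 0.38, as the gene with an adjusted p under 0.05.

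None of the 15 mitosis genes was called by edgeR or DESeq2, and 0 had an unadjusted p under 0.05 by either tool. Of these genes 4 had a positive log2 fold change (Bub1, Kif11, Mki67 and Top2a) and 11 a negative one. Scaling by total counts turned Ccna2, Bub1b, Aurkb and Birc5 positive, at 0.05, 0.02, 0.04 and 0.03. Cyclin B1 (Ccnb1), whose kinase with Cdk1 drives entry into mitosis, was the lowest of the mitotic entry genes. Its normalized counts were 945 and 1115 in Control and 846 and 959 after EDA-A2, an overlap of the conditions, and its log2 fold change was -0.19 (SE 0.10, adjusted p = 0.389). Cyclin B2 (Ccnb2) had 367 and 429 against 349 and 361, apart and lower after EDA-A2, at -0.16 (adjusted p = 0.578). The kinase itself, Cdk1, had 1848 and 2302 normalized counts in Control and 1949 and 1954 after EDA-A2, so that both EDA-A2 libraries lay between the Control libraries. Aurora A (Aurka), which matures the centrosomes, had 568 and 564 in the EDA-A2 libraries, below the 598 and 629 of Control, for a log2 fold change of -0.12 (adjusted p = 0.64). Polo-like kinase 1 (Plk1) was at -0.11 and cyclin A2 (Ccna2), which acts in S phase and G2, at -0.01.

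The abundant markers of proliferation did not separate the conditions. Top2a had 8772 and 10613 normalized counts in Control and 9682 and 9955 after EDA-A2, so that the EDA-A2 libraries lay between the Control libraries, with a log2 fold change of 0.02 (SE 0.08, adjusted p = 0.953). The proliferation antigen Ki-67 (Mki67) had 7813 and 9028 against 9059 and 8318, and a log2 fold change of 0.05 (adjusted p = 0.868). Kif11, the motor that separates the spindle poles, was the highest of the mitotic entry genes at 0.07 (SE 0.08, adjusted p = 0.798). Its normalized counts were 2055 and 2371 in Control and 2430 and 2202 after EDA-A2. In each of these genes the range within Control was wider than the difference between the conditions.

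Of the spindle checkpoint and exit genes, Bub1, a checkpoint kinase at the kinetochore, was the highest. It had 1553 and 1776 normalized counts in Control and 1864 and 1775 after EDA-A2, an overlap by about 1 normalized count, and a log2 fold change of 0.13 (SE 0.08, adjusted p = 0.512). Cdc20, the activator of the anaphase-promoting complex, was the lowest, with 560 and 676 against 532 and 547. Both EDA-A2 libraries were the lower ones, and the log2 fold change was -0.20 (SE 0.11, adjusted p = 0.425). Birc5, the highest of the list per length, had 1163 and 1301 against 1255 and 1167, which overlap, and was at -0.02 (SE 0.08, adjusted p = 0.938). Aurora B (Aurkb), the kinase of the same complex, was at -0.01, the checkpoint protein Bub1b at -0.03 and the centromeric histone Cenpa at -0.09.

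Replication was then set against mitosis. The median log2 fold change was 0.04 over the 15 replication genes, of which 11 were positive, and -0.03 over the 15 mitosis genes, of which 4 were positive. The difference of these medians was 0.07, a description without a test. It was 0.01 without Control 2 or without EDA-A2 1, 0.09 without Control 1 and 0.14 without EDA-A2 2. Scaled by total counts, the medians were 0.09 and 0.02, a positive value for both, and their difference stayed at 0.07. As a level in each library, the mean log2 CPM of the replication genes was 5.03 and 5.19 in Control 1 and 2 and 5.20 and 5.10 in EDA-A2 1 and 2. The mitosis genes stood at 5.51 and 5.73 in Control and 5.58 and 5.57 after EDA-A2, and the G1 regulators at 5.30, 5.36, 5.35 and 5.34. Replication minus mitosis was -0.48 and -0.54 in Control and -0.37 and -0.47 after EDA-A2, both EDA-A2 values being the higher ones. Their means differed by 0.09, while the libraries of a condition differed by 0.06 in Control and 0.10 in EDA-A2.

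**Figure D3:**
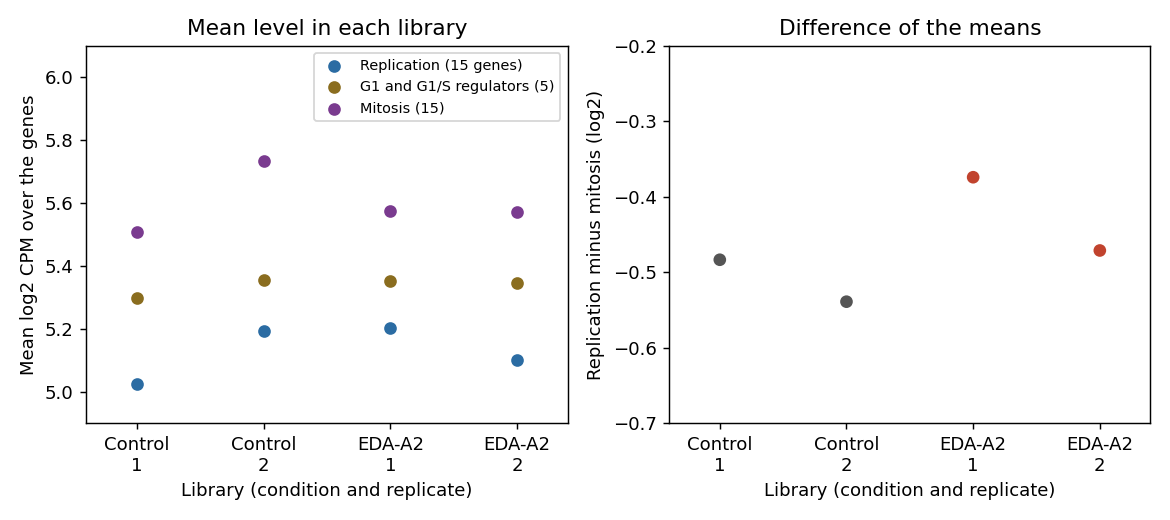
Left, mean log2 CPM (vertical axis) over the 15 replication, 5 G1 and 15 mitosis genes in each library (horizontal axis), and right, the replication mean minus the mitosis mean, grey for Control and red for EDA-A2. The mitosis mean is highest in Control 2 at 5.73, and both EDA-A2 values on the right, -0.37 and -0.47, lie above both Control values.

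The Control libraries differed from each other mostly in 1 direction. Control 2 was above Control 1 in 32 of the 35 genes, with a median log2 ratio of 0.21, and in 15 of the 15 mitosis genes, with a median of 0.22. Over all genes tested it was above in 7600 of 15173, with a median of 0.001. EDA-A2 2 was above EDA-A2 1 in 12 of the 35 genes, with a median of -0.03. Control 2 was the highest of the 4 libraries in 21 of the 35 genes and Control 1 the lowest in 21. In 27 of the 35 genes, and in 14 of the 15 mitosis genes, the log2 gap between the Control libraries exceeded the fitted change between conditions, against 8376 of 15169 genes. Without Control 1 the median of the mitosis genes was -0.14, and without Control 2 it was 0.08.

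Lists of other genes of the same processes held few calls. Of 47 other replication genes (origin recognition complex, polymerases, clamp loader and fork proteins), 0 were called by edgeR or DESeq2, and the median was 0.04 with 31 positive. By edgeR 1 was higher at an unadjusted p under 0.05 (Wdhd1), against 7.61% of all genes, and by DESeq2 0. Among those with the smallest p were Wdhd1 (0.23), Orc5 (0.19), Topbp1 (0.15) and Pold2 (-0.16), with adjusted p between 0.243 and 0.423 by edgeR's quasi-likelihood test. Of 64 other mitosis genes, 1 was lower (Cdc25b), against 2.13% of all genes, and 3 were lower and 0 higher at an unadjusted p under 0.05, against 8.03% and 7.61%. Neither count of lower genes exceeded its share over all genes, and the median was -0.01. Control 2 was above Control 1 in 62 of these 64 genes and in 31 of the 47 other replication genes. Cdc25b, the phosphatase that activates Cdk1 at mitotic entry, had 1930 and 1932 normalized counts in Control and 1448 and 1576 after EDA-A2, with no overlap. The log2 fold change of Cdc25b was -0.35 (SE 0.08, adjusted p = 0.0121), and the call was lost without the filter on low counts (adjusted p = 0.155) and without EDA-A2 1 (-0.29, adjusted p = 0.259). It was -0.35 without either Control library. The next by p were Kif20a (-0.23), Nek2 (-0.25), Sgo2a (0.21) and Ube2c (-0.19), with adjusted p between 0.197 and 0.341.

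Among the lists of cell cycle genes, the largest change was in Cdk6, in a list of 8 other G1 cyclins and kinases and their activators. This cyclin D kinase (chr5:3391485-3581008, plus strand) had 1395 and 1424 normalized counts in Control and 2188 and 2223 after EDA-A2. The conditions were far apart, with a mean of 1409 ± 20.4 against 2205 ± 24.9 (SD, n = 2 each), and the log2 fold change was 0.65 (SE 0.07, adjusted p = 6.56e-05 by edgeR's quasi-likelihood test). It held under every scaling and filter, by DESeq2's Wald test and without either EDA-A2 library. Without Control 1 or Control 2 the log2 fold change was 0.63 and 0.66, in fits that called 0 of all genes. The other 7 genes of that list were not called, so 1 of 8 was higher, against 2.45% of all genes by edgeR. Those with the smallest p were Ccnd3 (-0.22, adjusted p = 0.0855), a cyclin D of differentiating muscle, then Ccnd2 (-0.09), Myc (0.13) and Cdc25a (-0.08).

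Among 20 pocket protein, E2F, MuvB and MYB genes, which hold the transcriptional switch of the cycle, 0 were higher and 2 were lower by either tool, against 2.45% and 2.13% of all genes by edgeR. At an unadjusted p under 0.05 by edgeR, 2 were higher and 3 lower, against 7.61% and 8.03%. E2f8, a repressor of E2F targets, had 2191 and 2209 normalized counts in Control and 1771 and 1674 after EDA-A2, and a log2 fold change of -0.35 (SE 0.07, adjusted p = 0.00907). E2f6, another repressor of the family, had 2415 and 2373 against 1850 and 1945, and a log2 fold change of -0.34 (SE 0.07, adjusted p = 0.0114). In both genes the conditions did not overlap. Both calls were lost without the filter on low counts (adjusted p = 0.117 for E2f8 and 0.13 for E2f6). E2f8 also lost it without EDA-A2 2 (0.171), and E2f6 without EDA-A2 1 (0.198) or EDA-A2 2 (0.0659). Without Control 1 or Control 2 the log2 fold change was -0.36 and -0.35 for E2f8 and -0.32 and -0.35 for E2f6. Mybl1 (0.37), Rb1, the retinoblastoma protein (0.19), and E2f4 (-0.15) came next, with adjusted p between 0.151 and 0.314.

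Of 8 genes for inhibitors of the cyclin-dependent kinases, Cdkn2b had 0 counts in every library and was not tested, which at this depth allows up to 0.102 CPM. Among the other 7, 0 were called by edgeR or DESeq2, and 3 were lower at an unadjusted p under 0.05 by edgeR (8.03% over all genes) and 2 by DESeq2. Cdkn2c (-0.21), Cdkn1c (-0.26) and Cdkn2d (-0.20) had adjusted p between 0.18 and 0.32, followed by Cdkn1b (0.03) and Cdkn3 (-0.05). The p21 gene Cdkn1a, which holds fusing myoblasts out of the cycle and was singled out after its values were seen, had 37230 and 39607 normalized counts against 38180 and 38833, and a log2 fold change of 0.003 (SE 0.07).

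**Figure D4:**
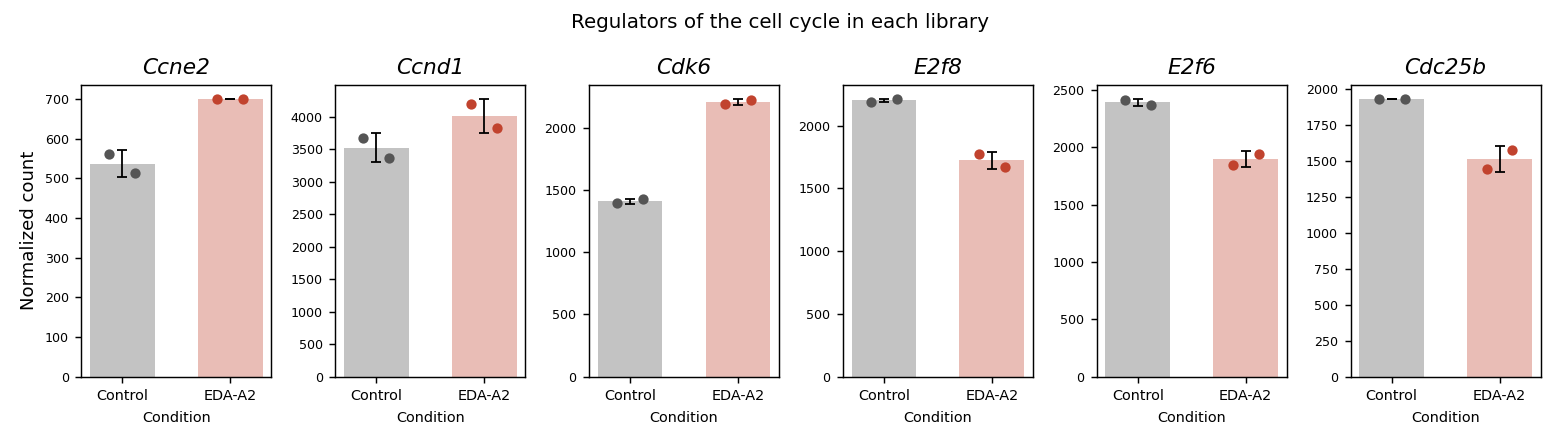
Normalized counts (vertical axes, each from 0) of 6 regulators in Control (grey) and EDA-A2 (red) libraries; points are libraries, bars are means and error bars are SD (n = 2). Cdk6 is higher after EDA-A2 (2205 against 1409) and Ccne2 by less, Ccnd1 did not pass the test, and E2f8, E2f6 and Cdc25b are lower.

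The labelled cell type was checked against its markers in the same libraries. The 8 myotube markers were abundant, Myh3 having 229884 and 231656 counts in Control. All 8 had a negative log2 fold change, with a median of -0.31. By the edgeR test 3 were lower, against 2.13% of all genes: Myh3 (-0.57), Acta1 (-0.52) and Myh8 (-0.38). DESeq2's Wald test called 4 lower. With an unadjusted p under 0.05, 6 were lower by either tool, against 8.03% of all genes by edgeR. Of 7 satellite cell and myoblast markers, 1 was higher, Vcam1 (0.53), and 1 lower, Cdh15 (-0.47), by edgeR and by DESeq2. These counts stand against 2.45% and 2.13% of all genes by edgeR. Of the 7 log2 fold changes, 1 was positive and 6 were negative, with a median of -0.13. At an unadjusted p under 0.05 by edgeR, 1 was higher and 2 were lower, against 7.61% and 8.03% of all genes. By DESeq2 these numbers were 1 and 1. Pax7 (1316 and 1341 counts against 1193 and 1254) did not pass the test. Without the filter on low counts Myh3 alone of these 5 calls held, the adjusted p being 0.0596 for Acta1, 0.0704 for Myh8 and 0.149 for Vcam1 and Cdh15, and Myh8 was also lost without EDA-A2 2 (0.107). Of 8 fibroblast markers, 3 had at most 3 counts in any library and were not tested. Among the 5 tested, 0 were called by edgeR or DESeq2. By edgeR 1 was higher and 1 lower at an unadjusted p under 0.05, against 7.61% and 8.03% of all genes, and by DESeq2 0. Lum and Thy1 were at 0 in all libraries, and Col1a1, at 9004 counts in Control 1, was above the 4769 to 5904 of the other 3 libraries. Of the 6 macrophage markers, Ptprc, Adgre1, Lyz2 and C1qa had at most 3 counts in any library, and of the 6 endothelial markers Emcn was at 0. Summed over its list, the normalized count of myotube markers was 692542 and 660474 in Control and 502399 and 502382 after EDA-A2, that of satellite cell and myoblast markers 41361.8 and 39238.7 against 39255.5 and 38952.2, and that of fibroblast markers 50490.3 and 52749.1 against 48401.7 and 49198.5. The highest count of 1 gene in a library was 30743 among the satellite cell and myoblast markers and 45682 among the fibroblast markers. In those libraries 1 gene thus made up most of the sum. For macrophage markers the sum was 61.8 and 69.6 against 89.2 and 73.7, mostly Cd68, and for endothelial markers 144 and 161 against 183 and 168, mostly Vwf. The part of these cell types in the values of the 35 genes was not tested.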

How the data were processed

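RNA from 2 Control and 2 EDA-A2 libraries of mouse primary myotubes was prepared with a stranded mRNA kit and sequenced as read pairs. The authors trimmed the reads with Trim Galore 0.6.5, mapped them to GRCm39 with STAR 2.7.3a and counted them with HTSeq 0.11.1, and the deposited values are whole-number counts per Ensembl gene, without normalization. The annotation release and the strand option of the counting are not given in the sources used here. HTSeq's summary lines were left out: 6.68% to 7.40% of pairs met no counted feature of a gene, 0.946% to 0.986% were ambiguous and 4.56% to 4.76% did not map uniquely. Of 53647 genes, 52610 matched GENCODE release 39, which gave symbols, positions and canonical transcripts.

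The tests used edgeR 4.0.16 in R 4.3.3: TMM factors (0.972 to 1.03), filterByExpr (minimum count 10, minimum total 15), then glmQLFit and glmQLFTest with a single term for condition, on all genes that passed, with Benjamini-Hochberg adjustment over all of them and a threshold of 0.05. The common dispersion was 0.00384. The chi-square per gene between replicates was 9.33 for Control and 4.45 for EDA-A2, so no library repeated another. Intervals and the floor of 3 counts cover counting error or library spread only, as read pairs were not tagged by molecule. The steps were tested on simulated counts. Alternatives were DESeq2 1.42.0 size factors, total counts, no filter, at least 10 counts in every library, DESeq2's Wald test, a replicate block and leaving out each library. The 35 genes, the other lists and the rule for naming genes were chosen with earlier results of these data known. By that rule every one of the 35 genes is named, with full values for each called and, in each role, for the highest and lowest log2 fold change and the highest level per length, and from each other list no more than 5 genes, those of smallest p-value; 1 gene that this rule names is not reported here. Outside it, Cdkn1a, Cdkn2b and the cell type markers at or near 0 were named after their values were seen. Promoter windows were read from the GRCm39 sequence.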

Additional observations from a re-analysis of the deposited data

How the results depend on the processing

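The count of the 35 genes called higher was 1 with TMM, DESeq2 size factors, total counts, at least 10 counts in every library and the replicate block, and 0 with no filter and with DESeq2's Wald test; 0 were called lower under any alternative. Over all genes, 371 were higher and 323 lower, against 485 and 194 with total counts, 370 and 333 with DESeq2 size factors, 64 and 22 of 25545 with no filter and 294 and 271 by DESeq2's Wald test. Of the other mitosis genes 1 was called, and 0 with no filter. Signs near 0 reversed for Rrm2 with DESeq2 size factors (-0.0017), no filter (-0.0045) and the Wald test (-0.0016), for Gins2 with no filter (-0.0027), and with total counts for Mcm4 (0.045), Rrm1 (0.040), Ccna2 (0.047), Bub1b (0.020), Aurkb (0.041) and Birc5 (0.030). The cause was not tested beyond the shift of all genes by 0.05 with total counts.

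Leaving out each library in turn gives fits in which the lone library of a condition is assumed to vary like the other condition. Without Control 1 or Control 2 these fits called 0 of all genes, so they say nothing of stability, and without EDA-A2 1 or EDA-A2 2 they called 238 and 164, and 207 and 170, higher and lower. The number of the 35 genes called higher was 0 to 0, that of other mitosis genes 0 to 1, the median of the replication genes was -0.048 to 0.11, that of the mitosis genes -0.14 to 0.079, and the difference of the medians 0.012 to 0.14. For 19 genes the lowest and highest log2 fold change had opposite signs: Mcm3 -0.022 to 0.13, Mcm4 -0.14 to 0.11, Mcm5 -0.048 to 0.12, Mcm6 -0.064 to 0.091, Gins2 -0.19 to 0.23, Rrm1 -0.074 to 0.052, Rrm2 -0.12 to 0.14, Tyms -0.074 to 0.23, E2f1 -0.15 to 0.037, Ccna2 -0.13 to 0.13, Cdk1 -0.24 to 0.079, Plk1 -0.21 to 0.0035, Mki67 -0.053 to 0.15, Top2a -0.11 to 0.16, Kif11 -0.032 to 0.17, Bub1b -0.14 to 0.083, Aurkb -0.14 to 0.13, Birc5 -0.10 to 0.059 and Cenpa -0.19 to 0.033.

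The replicate numbers are only numbers, since nothing in the labels says that they mark a shared culture or day, and deviations of libraries with the same number correlated at 0.11 over 13125 genes. With the replicate block the 35 genes had 1 call, Ccne2 (0.38, adjusted p = 0.0109 by edgeR), the medians were 0.04 and -0.03 for replication and mitosis, and 537 genes were higher and 529 lower over the whole table. Other calls on the 35 genes did not change with it.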

Other observations

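A pair of lists next to the cell cycle genes was added after the data had been seen. Of 21 genes of checkpoint kinases and homologous recombination, 0 were called by the quasi-likelihood test of edgeR (Benjamini-Hochberg adjusted) or by DESeq2. By edgeR 1 was higher at an unadjusted p under 0.05, against 7.61% of all genes. The median log2 fold change was 0.05, with 15 positive. Atr, the kinase that answers stalled replication forks, had 1975 and 1747 normalized counts in Control and 2303 and 1989 after EDA-A2, which do not overlap, and a log2 fold change of 0.21 (adjusted p = 0.25). Fancd2, of the crosslink repair pathway, was at 0.22 (adjusted p = 0.345) and Brca2 at 0.26 (adjusted p = 0.368). Of 14 genes of cohesin and its regulators, the ring that holds sister chromatids together, 0 were called by edgeR or DESeq2 and 0 had an unadjusted p under 0.05 by either, with a median of 0.05 and 10 positive. Esco2, the cohesin acetyltransferase of S phase, had 949 and 1170 normalized counts in Control and 1315 and 1111.5 after EDA-A2, at a log2 fold change of 0.20 (adjusted p = 0.42). Unlike in the mitosis genes, Control 2 was above Control 1 in 6 of the 14 cohesin genes.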
